A study of Rattus norvegicus with 13 samples.

Results

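The genes described here carry newly made proteins into the endoplasmic reticulum (ER) and between the ER and the Golgi apparatus. They were chosen by name, by a rule that uses no measured values but with earlier results of these data known, as 49 genes of the signal recognition particle, the translocon, the signal peptidase, the COPII and COPI vesicle coats, the cargo receptors and their regulators. Of these, 47 had a probe set annotated to them alone, out of 14217 such genes on the Affymetrix Rat Genome array, and 13748 of those genes were tested. Sec23a and Sec24a, both subunits of the inner COPII coat, had no probe set of their own and were not measured. All 47 measured genes were above the floor on low values on all 13 arrays, and their mean signals ran from 72.9 to 2192, with a median of 861 against 65.2 for all genes tested.

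Rat articular chondrocytes, the cells that make and maintain cartilage matrix, had been isolated from the femoral heads of Wistar males aged 2 months. Cells at the second passage were pooled and split among flasks in serum-containing medium, and each array held the RNA of 1 flask. Untreated cultures had 3 arrays, cultures with 20 mM glucosamine for 20 hours had 2, cultures with 10 ng/ml IL-1β for 14 hours had 4, and a further 4 arrays held cultures of both agents, in which glucosamine was present for 6 hours before IL-1β was added and during its 14 hours. Because all flasks came from 1 pool of cells, the p-values measure the spread between flasks. In such bulk RNA a change in the makeup of the cultures and a change of RNA per cell cannot be told apart.

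Secreted and membrane proteins are directed to the ER while they are being made: the signal recognition particle binds the emerging signal sequence, its receptor docks the ribosome, and the Sec61 channel threads the chain across the membrane, where signal peptidase removes the signal. COPII-coated vesicles then carry cargo from the ER towards the Golgi, and COPI-coated vesicles return escaped ER proteins, which the KDEL receptors recognise, and recycle the p24 cargo receptors. Chondrocytes secrete large amounts of collagen and proteoglycan, and membrane-bound transcription factors of the CREB3 family are known regulators of the transport genes in skeletal cells.

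The 2 replicate d arrays, 1 with IL-1β and 1 with both agents, stood apart from the other 11, with 25519 and 25372 probe sets above the floor respectively against 22130 to 23489 on the others, and with a 1st percentile of signal of -31.0 and -36.8 against -6.47 to -4.81. The summed signal of the 6 measured of 8 chondrocyte markers, without Sox9 and Matn3, ran from 9387 to 10630.0 on untreated arrays, from 7227 to 7569.7 with glucosamine, from 5099.5 to 6187 with IL-1β and from 5639 to 6790.3 with both agents, and none of the 6 was at the floor on any array. Single markers differed by unlike amounts. Mean signals on untreated and IL-1β arrays were 3819 and 2812 for Col2a1, 662 and 75.9 for Hapln1, and 240 and 35.1 for Acan. The summed signal of the 5 measured leukocyte markers was 12.4 to 20.2 on untreated arrays, 14.3 to 18.6 with glucosamine, 21.8 to 129.6 with IL-1β and 23.5 to 125 with both agents, and Itgam and Cd163 were at the floor on 12 and 11 of 13 arrays. The 3 measured endothelial markers summed to between 14.3 and 23.8, 20.1 and 20.8, 31.9 and 101, and 24.2 and 77.6 in the same order, with Vwf at the floor on 11 of 13 arrays. Of the 3 adipocyte markers, Fabp4 had a mean signal of 15.3 on untreated arrays, 817 with IL-1β and 98.9 with both agents, and Adipoq was at the floor on 8 of 13 arrays. The 3 skeletal muscle markers summed to between 457 and 724 over all arrays, of which Myh1 made 387 to 712, while Ckm was at the floor on 9 of 13 arrays. In the order untreated, glucosamine, IL-1β and both agents, mean signals were 396, 561, 493 and 620 for Myh1. They were 99.0, 38.4, 10.3 and 12.4 for Acta1. The part of these differences in the results below was not tested.

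Many of the transport genes were lower with IL-1β alone, and many were higher in cultures that also had glucosamine than with IL-1β alone. With IL-1β alone, 23 of the 47 genes fell and 1 rose against untreated cultures, that is 48.9% lower and 2.13% higher, where 15.3% of all genes tested were lower and 15.5% higher. Called means an adjusted p under 0.05 from limma, with Benjamini-Hochberg adjustment over 29263 probe sets, and the value after ± is the standard error of a log2 fold change. The median log2 fold change of the 47 genes was -0.26, against 0.09 over all genes. With both agents against IL-1β alone, 28 were higher and 1 lower, or 59.6% and 2.13%, where 15.8% and 14.8% of all genes were, and the median was 0.32 against 0.03. Glucosamine alone raised 7 and lowered 2, or 14.9% and 4.26%, where 10.4% and 9.37% of all genes were called, so that the share of calls was near that of all genes while the median was 0.15 against 0 and 38 of the 47 values were above 0. IL-1β alone serves as the changed group in the first comparison and as the baseline in the second, so the 2 sets of values are not independent.

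**Figure D1:**
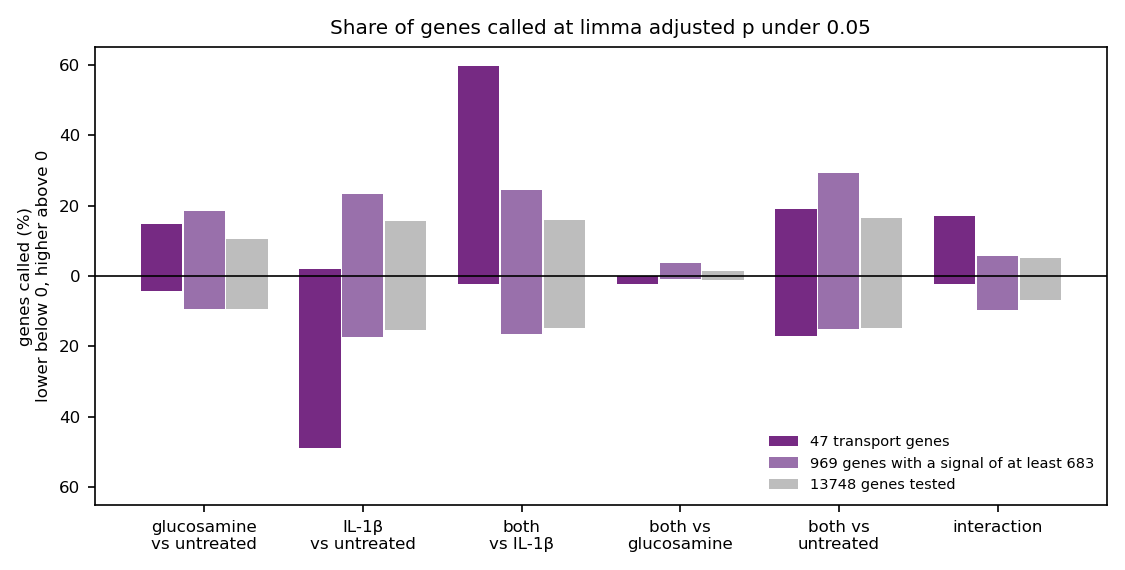
Percentage of genes called higher (above 0) and lower (below 0) in each comparison, for the 47 measured transport genes, the 969 genes with a mean signal of at least 683, and all 13748 genes tested. The longest bars of the transport genes are 48.9% lower for IL-1β against untreated cultures and 59.6% higher for both agents against IL-1β.

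Genes of high signal were called higher more often than all genes in each of the 6 comparisons, so the counts were also set beside the 969 genes whose mean signal was at least 683, the lower quartile of the 47 genes, a comparison chosen after seeing the data. Of those 969 genes, 35 of which are transport genes, 17.4% were lower and 23.2% higher with IL-1β. With both agents against IL-1β 24.5% were higher and 16.5% lower, and with glucosamine alone 18.4% were higher and 9.49% lower. The median log2 fold changes of the 969 genes were 0.04, 0.06 and 0.09 in the same order. For glucosamine alone, the 14.9% of transport genes called higher was thus below the share of genes of high signal. Their median of 0.15 stands beside 0.09 there. Array by array, the median log2 difference of the 47 genes from the untreated mean was -0.07, 0.02 and 0.05 on untreated arrays, 0.14 and 0.13 with glucosamine, -0.22, -0.29, -0.29 and -0.17 with IL-1β, and 0.01, 0.16, -0.03 and 0.01 with both agents. The 4 IL-1β arrays lay below all other arrays, whereas the arrays of both agents overlapped the untreated ones. Quantile normalization moved the median of all genes for IL-1β from 0.09 to 0.00 and called 36 of the 47 genes, 34 of them lower. Without the untreated replicate c array, 17 of the 47 were called for IL-1β. The shares of all genes called in these settings are not given here.

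**Figure D2:**
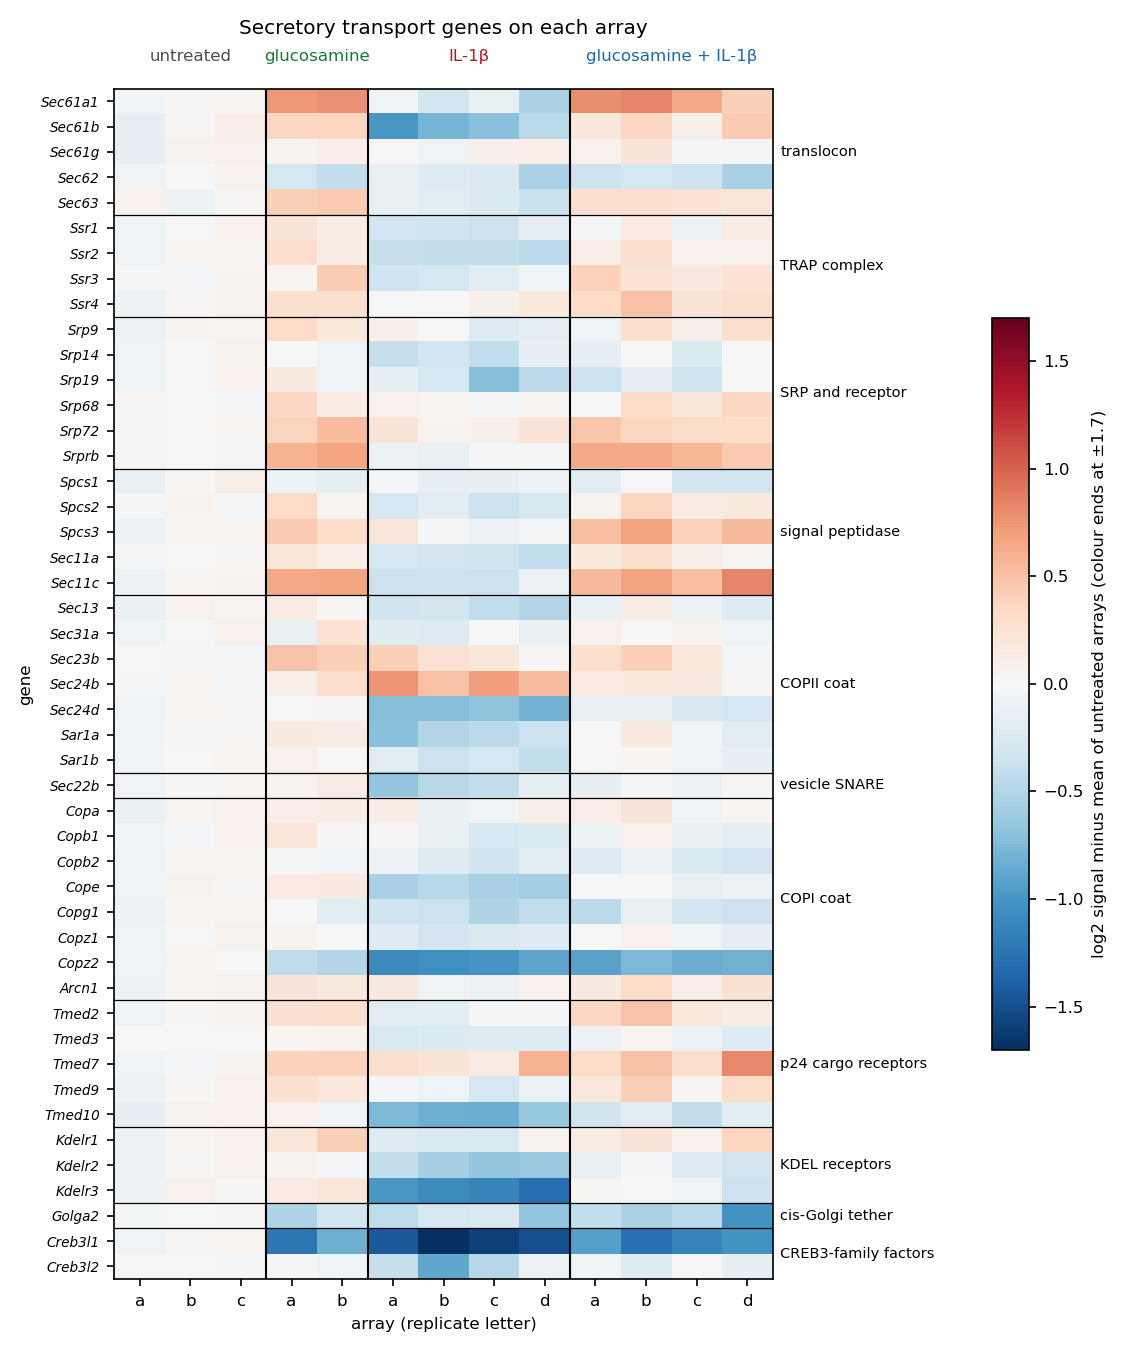
Log2 signal of each of the 47 measured transport genes (rows, grouped by role) on each of the 13 arrays (columns, by group and replicate letter), as the difference from the mean of the 3 untreated arrays. The IL-1β columns are mostly blue and those of glucosamine and both agents mostly white to red, with Sec24b, which is red with IL-1β, and Creb3l1 and Copz2, which are blue in every treated column, as the clearest exceptions.

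Promoters of these genes were searched for short sequences, which the choice of genes did not use. RefSeq promoter windows of the GRCr8 rat assembly, each running from 250 bases before to 50 bases after a gene start, were given for 45 of the 49 genes, all but Sec61a1, Sec24d, Sar1a and Kdelr2. Both strands were searched for 4 elements known from the response to unfolded ER proteins and to cyclic AMP. The core of the unfolded protein response element, ACGTGG, stood in 22 of the 45 windows (48.9%), against 2623 of 33469 windows of all genes (7.84%), 10.2% of 13193 windows of genes with a probe set of their own, 15.6% of 847 windows of genes with a signal of at least 683, and 23 of 87 windows of the other genes of the pathway (26.4%). The median GC content of the windows was 60.7% for the transport genes and 61.7% for those 847, and 51.7% over all windows. By role, the core was in all 5 windows of p24 cargo receptors, in 7 of 8 of COPI subunits, in 4 of 7 of COPII subunits, in 2 of 4 of the TRAP complex, in 2 of 6 of the signal recognition particle and its receptor, in 1 of 4 of the translocon, in 1 of 2 of KDEL receptors, in 0 of 5 of the signal peptidase, in 0 of 2 of the CREB3-family factors, and not in the single windows of the vesicle SNARE and the cis-Golgi tether. The ER stress response element (CCAAT, any 9 bases, CCACG) and its second form (ATTGG, any base, CCACG) were in 0 of the 45 windows, and in 0.0657% and 0.0508% of all windows, and both share the letters CCACG with the reverse complement of ACGTGG. The cyclic AMP response element TGACGTCA was in 1 window, that of Cope, or 2.22% against 1.83% of all windows. Matches of ACGTGG are shown with up to 12 bases on either side, in the direction of the gene, for the p24 family and Kdelr3, where matches were most frequent, and for Srprb, Sec63, Sec13 and Sec24b, whose changes are described below. Capitals mark ACGTGG or, on the other strand, its reverse complement CCACGT.
Tmed2 A: gtgatcatcaacCCACGTcgaagggcttga
Tmed2 B: cgtgcgtccgttACGTGGcagctgtcggct
Tmed3: gctgagctcgcgCCACGTctcttcggaggg
Tmed7: cctcacgctcttCCACGTcctcactacaac
Tmed9: ctccgcaggtctACGTGGctcggcagtctg
Tmed10: tagaggcgagtcACGTGGgtttccccggtt
Kdelr3 A: gtcggcgtagggACGTGGgaagcgcagctt
Kdelr3 B: cgagccgccccgCCACGTcaccgcgcggcc
Kdelr3 C: gcggggacggggACGTGGcagcgccccgcg
Srprb: tggagcctagggCCACGTatctttggagac
Sec63: tcgctgcgcgcgCCACGTctccctctgcga
Sec13: cgttctgagctgCCACGTccgaggctgtga
Sec24b: agagtACGTGGatgagctgggac

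In these lines the letters A, B and C number the matches of 1 gene, and coordinates are those of GRCr8. For Tmed2 the stretches were chr12:37722753-37722782 and chr12:37722654-37722683 on the minus strand, with the matches beginning 164 and 65 bases before the gene start. For Tmed3 the stretch was chr8:99129236-99129265 on the minus strand, with the match beginning 24 bases after the gene start. For Tmed7 the stretch was chr18:41512300-41512329 on the minus strand, with the match beginning 74 bases before the gene start. For Tmed9 the stretch was chr17:9039333-9039362 on the minus strand, with the match beginning 39 bases before the gene start. For Tmed10 the stretch was chr6:110757788-110757817 on the minus strand, with the match beginning 62 bases before the gene start. For Kdelr3 the stretches were chr7:112959470-112959499, chr7:112959519-112959548 and chr7:112959614-112959643 on the plus strand, with the matches beginning 150, 101 and 6 bases before the gene start. For Srprb the stretch was chr8:112661527-112661556 on the minus strand, with the match beginning 20 bases before the gene start. For Sec63 the stretch was chr20:47827257-47827286 on the plus strand, with the match beginning 22 bases before the gene start. For Sec13 the stretch was chr4:148446722-148446751 on the minus strand, with the match beginning 4 bases before the gene start. For Sec24b the stretch was chr2:221307147-221307169 on the minus strand, with the match beginning 245 bases before the gene start.

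**Figure D3:**
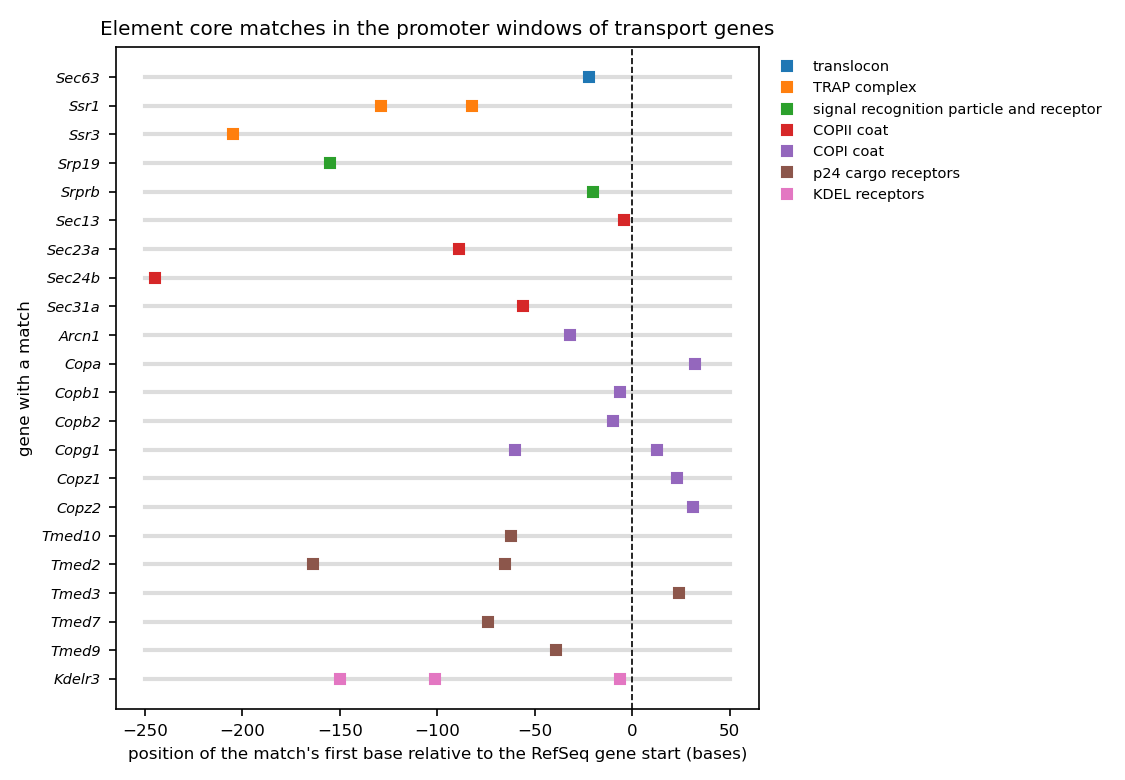
Positions of the 27 matches of the element core on either strand in the promoter windows of the 22 transport genes that hold one, in bases relative to the RefSeq gene start (dashed line), coloured by role. Of the matches, 22 begin before the gene start, and Kdelr3 holds 3, the most of any gene shown.

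Genes with and without the core both fell with IL-1β. With IL-1β, the 21 measured genes with ACGTGG had a median log2 fold change of -0.22, with 9 lower and 1 higher, and the 22 without it had a median of -0.29, with 11 lower. With both agents against IL-1β the medians were 0.19 and 0.32, and with glucosamine alone 0.12 and 0.18. Kdelr3, with 3 matches, had the second largest fall with IL-1β, and Creb3l1, with the largest, had no match in its window. No test was made of these shares or medians.

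In the signal recognition particle and its receptor, 2 of 6 measured genes rose with glucosamine and 1 fell with IL-1β, or 33.3% and 16.7%. Over all genes 10.4% rose with glucosamine and 15.3% fell with IL-1β, so the share that fell was near that of all genes. Srprb, the membrane-anchored subunit of the receptor, read 561, 554 and 549.6 on the untreated arrays, 834 and 882 with glucosamine, 516, 510.0, 546 and 543 with IL-1β, and 867, 872, 821 and 756 with both agents. The 2 glucosamine arrays and the 4 arrays of both agents all lay above every array without glucosamine. Against untreated cultures Srprb rose 1.55-fold with glucosamine (log2 fold change 0.63 ± 0.07, adjusted p = 7.71e-05) and 1.49-fold with both agents (adjusted p = 1.66e-05), whereas with IL-1β alone the log2 fold change was -0.07 (adjusted p = 0.467). Srp72, which binds the particle's RNA together with Srp68, read 354, 362 and 368 on the untreated arrays, 469 and 519 with glucosamine, 420.3, 377, 384 and 419 with IL-1β, and 499, 464, 449 and 449 with both agents. It was 1.37-fold higher with glucosamine (log2 fold change 0.45 ± 0.07, adjusted p = 0.00138) and 1.16-fold higher with both agents than with IL-1β (adjusted p = 0.0156), the latter call being lost without both agents replicate a (0.18) or IL-1β replicate b (0.19). Srp14, which with Srp9 slows the ribosome until it docks, read 1176, 1239 and 1277 on the untreated arrays, 1236 and 1185 with glucosamine, 939, 979.7, 921 and 1114 with IL-1β, and 1099, 1226, 1044 and 1225 with both agents. With IL-1β every array of Srp14 was below the untreated arrays (log2 fold change -0.32 ± 0.08, adjusted p = 0.0117), a call that was lost without untreated replicate c (-0.29), and with both agents the arrays overlapped both those groups. Srp9, Srp19 and Srp68 were called in no comparison. Their log2 fold changes lay between 0.05 and 0.25 with glucosamine and between -0.40 and 0.04 with IL-1β, with Srp19 lowest (log2 fold change -0.40 ± 0.13, adjusted p = 0.0522). Dimmer probe sets of these genes did not all carry the calls for glucosamine. For Srp72, 2 others gave 0.21 and 0.07, neither called, and for Srprb 1 gave 0.71 (adjusted p = 0.00573) and 1 near the floor gave -0.24, not called. On the mean of their probe sets the glucosamine calls of both genes were lost, at 0.25 for Srp72 and 0.37 for Srprb, as was that of Srp72 with both agents against IL-1β (0.12).

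Of the 5 translocon genes, Sec61a1 rose with glucosamine, Sec61b fell with IL-1β, and Sec63 did both. Sec61a1, the pore-forming subunit, read 862, 900.3 and 910.4 on the untreated arrays, 1491 and 1524 with glucosamine, 850.0, 717, 816 and 613 with IL-1β, and 1540.2, 1584, 1392 and 1175 with both agents. All glucosamine-containing arrays were above all others, and Sec61a1 was 1.69-fold higher with glucosamine than in untreated cultures (log2 fold change 0.76 ± 0.14, adjusted p = 0.00367) and 1.90-fold higher with both agents than with IL-1β (log2 fold change 0.93 ± 0.11, adjusted p = 8.11e-05). The difference between IL-1β and untreated cultures was -0.26 on the log2 scale and was not called (adjusted p = 0.159), although the arrays did not overlap. A dimmer probe set of Sec61a1 gave 0.87 with glucosamine, not called (adjusted p = 0.255), and 1.47 with both agents against IL-1β (adjusted p = 0.00638). Sec61b, the tail-anchored beta subunit, read 1324, 1481 and 1569 on the untreated arrays, 1848 and 1868 with glucosamine, 735, 841, 891 and 1054 with IL-1β, and 1658, 1849, 1559.9 and 1984 with both agents. It fell 1.67-fold with IL-1β (log2 fold change -0.74 ± 0.12, adjusted p = 0.000658) and was 2.01-fold higher with both agents than with IL-1β (log2 fold change 1.01 ± 0.11, adjusted p = 3.93e-05), while with glucosamine alone its log2 fold change was 0.35 (adjusted p = 0.143). Sec63, a partner of the channel that recruits the ER chaperone BiP, read 419.6, 377 and 405 on the untreated arrays, 529 and 543 with glucosamine, 367, 354, 341 and 307 with IL-1β, and 488, 489.7, 477 and 462 with both agents. The 4 groups of Sec63 did not overlap, with IL-1β lowest and glucosamine highest. Its log2 fold changes were 0.42 ± 0.08 with glucosamine (adjusted p = 0.0027), -0.23 ± 0.06 with IL-1β (adjusted p = 0.0207) and 0.49 ± 0.06 with both agents against IL-1β (adjusted p = 8.49e-05). The IL-1β call of Sec63 was lost without untreated replicate a (-0.19) or c (-0.22), and its 3 dimmer probe sets gave -0.43, -0.18 and 0.16 there, none called. With glucosamine those 3 gave -0.21, 0.65 (adjusted p = 0.0322) and 0.60, and with both agents against IL-1β -1.0, 0.70 (adjusted p = 0.00317) and 0.56, where in each case the second alone was called. On the mean of all its probe sets Sec63 lost these calls, with 0.36 for glucosamine, -0.17 for IL-1β and 0.19 for both agents against IL-1β. Sec61g, the smallest subunit of the channel, was not called in any comparison, with log2 fold changes between -0.06 and 0.08. Sec62, which serves chains delivered after translation, was lower with both agents than in untreated cultures (log2 fold change -0.39 ± 0.09, adjusted p = 0.0101) and had log2 fold changes of -0.36 (adjusted p = 0.0531) with glucosamine and -0.28 (adjusted p = 0.0515) with IL-1β. A dimmer probe set of Sec62 was called lower with both agents (-0.30, adjusted p = 0.00473) and with IL-1β (-0.24, adjusted p = 0.0163). With glucosamine it gave -0.23, not called (adjusted p = 0.0706).

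**Figure D4:**
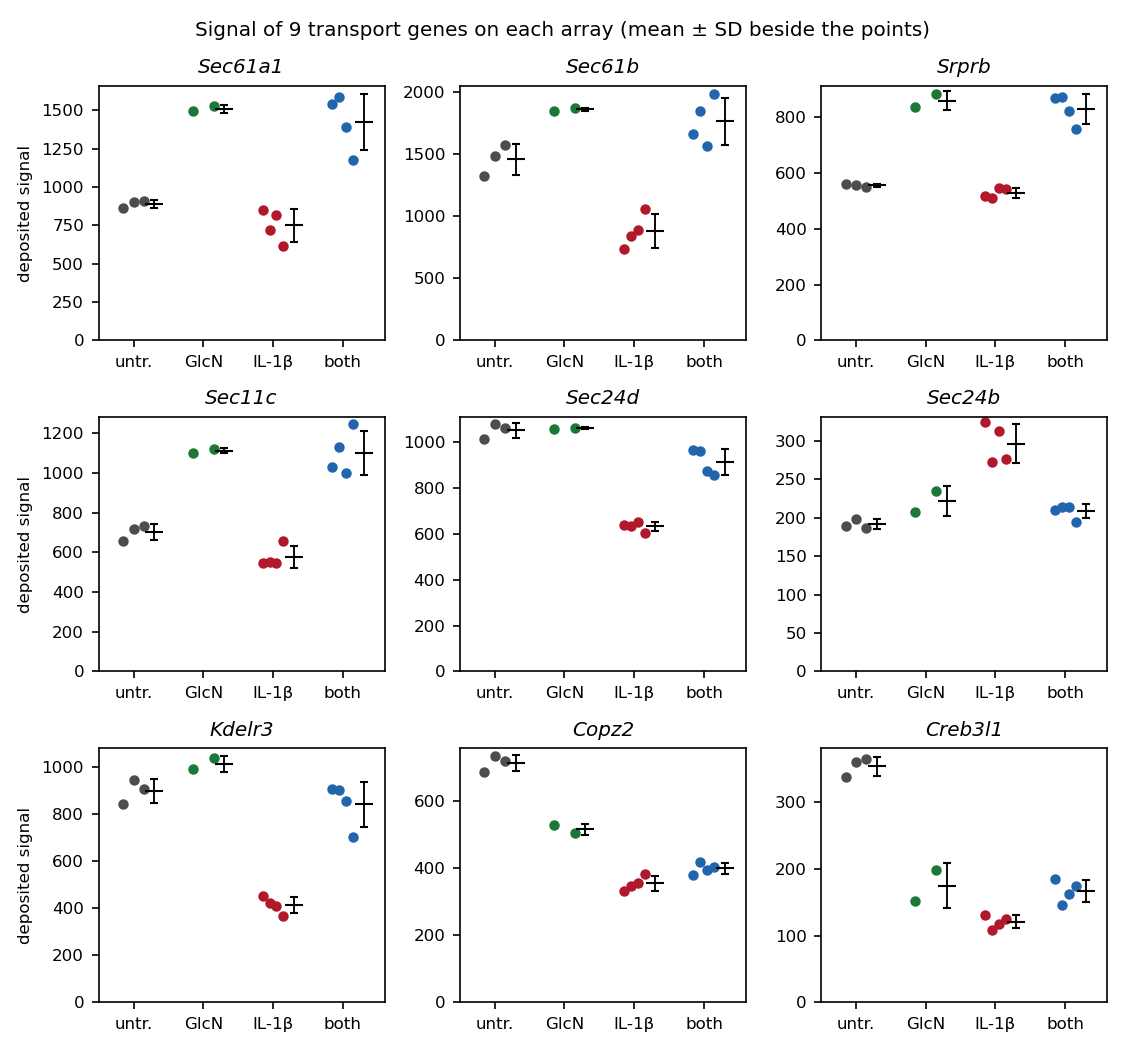
Deposited signal (linear axis from 0) of 9 transport genes on each array of untreated, glucosamine (GlcN), IL-1β and both-agent cultures, with the mean ± SD beside the points. Sec61a1, Srprb and Sec11c are higher in both groups with glucosamine, Sec61b, Sec24d and Kdelr3 are lowest with IL-1β alone, Sec24b is highest with IL-1β alone, and Copz2 and Creb3l1 are lower in all 3 treated groups.

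All 4 genes of the TRAP complex, which sits beside the channel and helps some chains to enter, were higher with both agents than with IL-1β, and 2 of them fell with IL-1β. Of all genes, 15.8% were higher in the former comparison and 15.3% fell in the latter. Ssr2 read 836, 897 and 894 on the untreated arrays, 1064 and 953 with glucosamine, 666, 661, 664 and 641 with IL-1β, and 949.7, 1067, 924 and 918 with both agents. It fell 1.33-fold with IL-1β (log2 fold change -0.41 ± 0.06, adjusted p = 0.000462), and with both agents every array was above the untreated range. Ssr1 read 1181, 1254 and 1305 on the untreated arrays, 1445 and 1361 with glucosamine, 995, 988, 966 and 1126 with IL-1β, and 1233, 1376, 1178 and 1358 with both agents. The IL-1β arrays of Ssr1 were all below the rest (log2 fold change -0.29 ± 0.08, adjusted p = 0.0134), a call lost without untreated replicate b (-0.29) or c (-0.26). Ssr3 and Ssr4 had log2 fold changes of -0.22 and 0.06 with IL-1β, neither called, and of 0.47 ± 0.09 and 0.27 ± 0.07 with both agents against IL-1β (adjusted p = 0.00307 and 0.0179), the call of Ssr4 being lost without IL-1β replicate b (0.24). With glucosamine alone the 4 log2 fold changes lay between 0.17 and 0.27, and none was called. A dimmer probe set of Ssr3 was called lower with IL-1β (-1.90, adjusted p = 0.0198), while another gave 0.12 (adjusted p = 0.753).

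Signal peptidase cleaves the signal sequence, and its 2 alternative catalytic subunits, Sec11a and Sec11c, both fell with IL-1β and were higher with both agents than with IL-1β. Sec11c read 659, 717 and 730.5 on the untreated arrays, 1102 and 1119.9 with glucosamine, 546, 549.6, 545 and 657 with IL-1β, and 1029, 1131, 999 and 1245 with both agents. It rose 1.58-fold with glucosamine (log2 fold change 0.66 ± 0.11, adjusted p = 0.00121) and was 1.92-fold higher with both agents than with IL-1β (log2 fold change 0.94 ± 0.08, adjusted p = 6.9e-06). Its fall with IL-1β was smaller (log2 fold change -0.29 ± 0.09, adjusted p = 0.0327) and was lost without IL-1β replicate a, b or c or untreated replicate b or c, with values from -0.36 to -0.26 over all arrays left out in turn. Sec11a read 899, 911 and 924 on the untreated arrays, 1055 and 988 with glucosamine, 744, 726, 721 and 683 with IL-1β, and 1027, 1117, 968 and 941 with both agents. Its IL-1β arrays were below, and its arrays of both agents above, the untreated range, with log2 fold changes of -0.34 ± 0.06 against untreated cultures (adjusted p = 0.00154) and 0.49 ± 0.06 between both agents and IL-1β (adjusted p = 6.78e-05). Among the accessory subunits, Spcs3 read 1117, 1243 and 1239.7 on the untreated arrays, 1626 and 1486 with glucosamine, 1384, 1172, 1114 and 1170.5 with IL-1β, and 1711, 1918, 1573 and 1759.7 with both agents. Spcs3 rose with glucosamine (log2 fold change 0.38 ± 0.11, adjusted p = 0.0348), a call lost without either glucosamine array, without both agents replicate a or without any 1 untreated array (0.31 to 0.44), and it was 1.44-fold higher with both agents than with IL-1β (adjusted p = 0.000599). Spcs2 read 775, 818 and 768 on the untreated arrays, 989 and 810.1 with glucosamine, 639, 694, 610.1 and 650.1 with IL-1β, and 817, 1009.7, 866 and 883 with both agents. Its IL-1β arrays lay below all others (log2 fold change -0.28 ± 0.09, adjusted p = 0.0317), a call lost without IL-1β replicate a, c or d or any 1 untreated array (-0.30 to -0.25), and it was higher with both agents than with IL-1β (log2 fold change 0.46 ± 0.08, adjusted p = 0.00109). Spcs1 was not called in any comparison, with log2 fold changes between -0.21 and 0.02.

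Of the 7 measured COPII genes, 4 fell with IL-1β, where 15.3% of all genes did, and Sec24b was the 1 transport gene that rose. Sec24d and Sec24b are alternative cargo-binding subunits of the inner coat and moved in opposite directions. Sec24d read 1012, 1078 and 1062 on the untreated arrays, 1057 and 1063 with glucosamine, 638, 634, 651 and 604 with IL-1β, and 965, 961, 873 and 856 with both agents. It fell 1.66-fold with IL-1β (log2 fold change -0.73 ± 0.06, adjusted p = 1.74e-06), and the arrays of both agents lay between the IL-1β and the untreated arrays without overlap, 1.44-fold above IL-1β (log2 fold change 0.53 ± 0.05, adjusted p = 1.81e-05). Sec24b read 189.8, 199 and 187 on the untreated arrays, 208 and 236 with glucosamine, 324, 272, 313 and 277 with IL-1β, and 211, 214, 214 and 195 with both agents. It rose 1.54-fold with IL-1β (log2 fold change 0.62 ± 0.08, adjusted p = 7.06e-05) and was 1.42-fold lower with both agents than with IL-1β (log2 fold change -0.51 ± 0.07, adjusted p = 0.000235). A dimmer probe set of Sec24b gave 0.02 and -0.04 in these 2 comparisons (adjusted p = 0.927 and 0.891), so the rise rests on 1 probe set. Sar1a and Sar1b are the small GTPases that start coat assembly. Sar1a read 1277, 1331 and 1339 on the untreated arrays, 1459 and 1449.5 with glucosamine, 800.5, 929.8, 969.8 and 1023 with IL-1β, and 1304, 1474, 1266 and 1153 with both agents, and its brighter probe set fell 1.42-fold with IL-1β (log2 fold change -0.50 ± 0.09, adjusted p = 0.00162), while a second gave -0.28 (adjusted p = 0.126). Sar1b read 774, 799.5 and 828 on the untreated arrays, 838 and 797 with glucosamine, 706, 621, 653 and 599 with IL-1β, and 796, 821, 766 and 729.6 with both agents. Its IL-1β arrays were below all others (log2 fold change -0.31 ± 0.06, adjusted p = 0.00345), and those of both agents overlapped the untreated arrays. Sec13, of the outer cage, read 1051, 1197 and 1172 on the untreated arrays, 1249 and 1154 with glucosamine, 902, 915, 848 and 805 with IL-1β, and 1050.0, 1244, 1077 and 977 with both agents. Sec13 fell 1.31-fold with IL-1β (log2 fold change -0.39 ± 0.09, adjusted p = 0.00484) and was 1.25-fold higher with both agents than with IL-1β (log2 fold change 0.32 ± 0.08, adjusted p = 0.0108). Sar1a (adjusted p = 0.00145) and Sar1b (adjusted p = 0.00554) were also higher there. The second probe set of Sar1a gave 0.06 in that comparison and was not called (adjusted p = 0.84). Sec23b, the measured Sec23 subunit, rose 1.36-fold with glucosamine (log2 fold change 0.45 ± 0.12, adjusted p = 0.0274), a call lost without either glucosamine array or any 1 untreated array (0.41 to 0.49). Sec31a, the cage partner of Sec13, was called in no comparison, with log2 fold changes between -0.13 and 0.16. Sec22b, a SNARE that fuses ER and Golgi vesicles with their target, read 800.3, 846 and 862 on the untreated arrays, 871 and 919 with glucosamine, 531, 605, 627 and 749 with IL-1β, and 759.6, 814, 779.9 and 849 with both agents. With IL-1β it was below every other array (log2 fold change -0.42 ± 0.10, adjusted p = 0.00612), and it was higher with both agents than with IL-1β (log2 fold change 0.36 ± 0.09, adjusted p = 0.0107).

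Of the 8 coatomer genes of the COPI coat, 4 fell with IL-1β and 3 were higher with both agents than with IL-1β. The shares of all genes were 15.3% and 15.8% there. Copz2, a zeta subunit, was the 1 coatomer gene that also fell with glucosamine. Copz2 read 684, 732 and 717 on the untreated arrays, 526 and 502 with glucosamine, 331, 345, 356 and 382 with IL-1β, and 378, 418, 395 and 402 with both agents. It fell 2.01-fold with IL-1β (log2 fold change -1.01 ± 0.06, adjusted p = 1.41e-07), 1.38-fold with glucosamine (log2 fold change -0.47 ± 0.07, adjusted p = 0.000738) and 1.79-fold with both agents (log2 fold change -0.84 ± 0.06, adjusted p = 9.69e-07). The arrays of both agents overlapped those of IL-1β alone, and the call between them (log2 fold change 0.17 ± 0.05, adjusted p = 0.0386) was lost without any 1 of 10 arrays (0.14 to 0.18), namely all but both agents replicate a, IL-1β replicate d and untreated replicate a. Cope, the epsilon subunit, read 788, 858 and 835 on the untreated arrays, 910.5 and 921 with glucosamine, 565, 594, 563 and 553 with IL-1β, and 827, 825, 756 and 768 with both agents. Its IL-1β arrays lay below the rest (log2 fold change -0.54 ± 0.05, adjusted p = 1.17e-05), and it was 1.40-fold higher with both agents than with IL-1β (log2 fold change 0.48 ± 0.05, adjusted p = 2.13e-05). Copg1, a cargo-binding gamma subunit, read 872, 949 and 952 on the untreated arrays, 918 and 815 with glucosamine, 729.9, 717, 650.3 and 689 with IL-1β, and 681, 843, 736 and 725 with both agents. It fell with IL-1β (log2 fold change -0.41 ± 0.08, adjusted p = 0.00215), but both agents differed from IL-1β by 0.10 (adjusted p = 0.462) and were below untreated cultures (log2 fold change -0.31 ± 0.08, adjusted p = 0.0118), the latter call being lost without untreated replicate b (-0.29) or c (-0.29). Against untreated cultures a dimmer probe set of Copg1 gave -0.55 with IL-1β (adjusted p = 0.000351) and -0.72 with both agents (adjusted p = 4.9e-05). Copz1, the common zeta subunit, read 849.7, 898 and 934 on the untreated arrays, 931 and 895 with glucosamine, 769, 712, 751 and 766 with IL-1β, and 901, 937, 853 and 803 with both agents. Its log2 fold changes were -0.25 ± 0.06 with IL-1β (adjusted p = 0.00985), lost without untreated replicate c (-0.22), and 0.22 ± 0.06 with both agents against IL-1β (adjusted p = 0.0152), lost without IL-1β replicate b (0.19). A second probe set of Copz1 gave -0.02 in the latter comparison (adjusted p = 0.977), and the mean of both gave 0.10, not called. Copa, Copb1, Copb2 and Arcn1, the alpha, beta, beta-prime and delta subunits, had log2 fold changes between -0.20 and 0.02 with IL-1β and between -0.04 and 0.20 with glucosamine, and none was called there. A second, dimmer probe set of Arcn1 was called lower with IL-1β (log2 fold change -0.48, adjusted p = 0.00529) and higher with both agents than with IL-1β (0.47, adjusted p = 0.00406).

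The p24 proteins pack cargo into both kinds of vesicle, and Tmed10, which many of them need for stability, fell most. Tmed10 read 1240.3, 1413 and 1438 on the untreated arrays, 1433 and 1301 with glucosamine, 799, 765, 760.4 and 870.1 with IL-1β, and 1074, 1186, 1030.0 and 1200.5 with both agents. It fell 1.71-fold with IL-1β (log2 fold change -0.77 ± 0.08, adjusted p = 2.04e-05) and was 1.40-fold higher with both agents than with IL-1β (log2 fold change 0.49 ± 0.07, adjusted p = 0.000466), with the arrays of both agents still below the untreated arrays. Tmed3 read 854, 853 and 850.2 on the untreated arrays, 871 and 889 with glucosamine, 715, 729, 733 and 734 with IL-1β, and 793, 879.9, 794 and 729 with both agents. Its fall with IL-1β was small but outside the spread of the arrays (log2 fold change -0.23 ± 0.06, adjusted p = 0.0123), and the arrays of both agents overlapped both groups. Tmed2, Tmed7 and Tmed9 were not called for IL-1β, with log2 fold changes of -0.10, 0.31 and -0.12. Second probe sets of Tmed2 and Tmed9 were called lower there (-0.54 and -0.75, adjusted p = 0.0356 and 0.0219), and a second probe set of Tmed7 near the floor was called higher (2.18, adjusted p = 0.0277). With both agents against IL-1β, Tmed2 (log2 fold change 0.39 ± 0.08, adjusted p = 0.00447) and Tmed9 (log2 fold change 0.36 ± 0.09, adjusted p = 0.0106) were higher and Tmed7 was not called (0.18). With glucosamine alone the 5 log2 fold changes lay between 0.01 and 0.39, none called.

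The KDEL receptors return ER-resident proteins from the Golgi, and all 3 were higher with both agents than with IL-1β, where 15.8% of all genes were. Kdelr3, whose promoter window held the 3 matches shown, read 842, 946 and 908 on the untreated arrays, 990.5 and 1038 with glucosamine, 451, 424, 411 and 369 with IL-1β, and 907, 903, 858 and 702 with both agents. It fell 2.17-fold with IL-1β (log2 fold change -1.12 ± 0.10, adjusted p = 3.83e-06), and it was 2.03-fold higher with both agents than with IL-1β (log2 fold change 1.02 ± 0.09, adjusted p = 6e-06), where the arrays overlapped those of untreated cultures. Kdelr2 read 1829, 1962 and 2034 on the untreated arrays, 2019.6 and 1888 with glucosamine, 1463, 1308, 1223 and 1251 with IL-1β, and 1772, 1921, 1664 and 1557 with both agents. It fell 1.48-fold with IL-1β (log2 fold change -0.57 ± 0.09, adjusted p = 0.000378) and was higher by 0.40 ± 0.08 with both agents than with IL-1β (adjusted p = 0.00298). Kdelr1 read 1086, 1191 and 1219 on the untreated arrays, 1348 and 1547 with glucosamine, 997, 980.3, 971 and 1218 with IL-1β, and 1267, 1352, 1221 and 1497 with both agents. Its IL-1β replicate d array was at 1218 while the others were at 971 to 997, the IL-1β arrays overlapped the untreated ones, and the log2 fold change of -0.17 was not called (adjusted p = 0.289), whereas both agents were higher than IL-1β (log2 fold change 0.36 ± 0.09, adjusted p = 0.0131).

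Creb3l1 and Creb3l2 encode membrane-bound transcription factors that travel from the ER to the Golgi to be cleaved, and Creb3l2 is known in cartilage for driving the COPII gene Sec23a, which was not measured. Creb3l1 read 338, 360.3 and 365 on the untreated arrays, 151 and 199 with glucosamine, 132, 109, 118 and 126 with IL-1β, and 186, 147, 162 and 175 with both agents. Its untreated arrays were above all others, and it fell 2.04-fold with glucosamine (log2 fold change -1.03 ± 0.13, adjusted p = 0.000215), 2.93-fold with IL-1β (log2 fold change -1.55 ± 0.11, adjusted p = 7.03e-07) and 2.12-fold with both agents (log2 fold change -1.09 ± 0.11, adjusted p = 1.65e-05). Both agents were 1.38-fold above IL-1β alone (log2 fold change 0.47 ± 0.10, adjusted p = 0.00494). Creb3l2, the dimmest of the 47 genes, read 83.3, 83.3 and 81.5 on the untreated arrays, 80.7 and 78.4 with glucosamine, 63.3, 44.7, 59.0 and 77.4 with IL-1β, and 80.2, 70.9, 83.1 and 75.1 with both agents. Its IL-1β arrays were below the untreated and glucosamine arrays and overlapped those of both agents, and the log2 fold change of -0.46 ± 0.15 was called (adjusted p = 0.0458) but lost without any 1 of 11 arrays (-0.49 to -0.32), namely all but the 2 replicate d arrays. Golga2, a tether of the cis-Golgi, had log2 fold changes of -0.41 with glucosamine and -0.42 with IL-1β (adjusted p = 0.158 and 0.0563) and fell 1.52-fold with both agents (log2 fold change -0.60 ± 0.14, adjusted p = 0.00875).

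Between both agents and glucosamine alone, 0 of the 47 genes rose and 1 fell by limma, where 1.45% and 1.13% of all genes were called. At an unadjusted p under 0.05 there were 8, all lower, and by the methods' analysis of variance with Tukey's test 5 were called. The shares of all genes in these 2 settings are not given, so neither count is read as a result about the transport genes. The median log2 fold change was -0.09 against 0.03 over all genes. The gene called was Copz2, 1.29-fold lower (log2 fold change -0.37 ± 0.07, adjusted p = 0.0133), and the call was lost without glucosamine replicate a (-0.34) or b (-0.40). This comparison had 2 arrays on one side, and 40 of the 47 values were below 0. Among the 24 genes called for IL-1β alone, Kdelr3 had a log2 fold change of -0.27 with a 95% confidence interval from -0.51 to -0.04, Creb3l1 one of -0.06 (-0.33 to 0.21), and Sec61b one of -0.08 (-0.38 to 0.21), and the values without glucosamine (-1.12, -1.55 and -0.74) lay outside these intervals. The same held for 20 of the 24 genes, all but Sec63, Ssr1, Copg1 and Tmed3. The 24 genes were chosen by that same IL-1β difference, which favours values outside the intervals. This compares values and does not test the difference, for which the interaction below was called in 9 of the 47 genes.

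**Figure D5:**
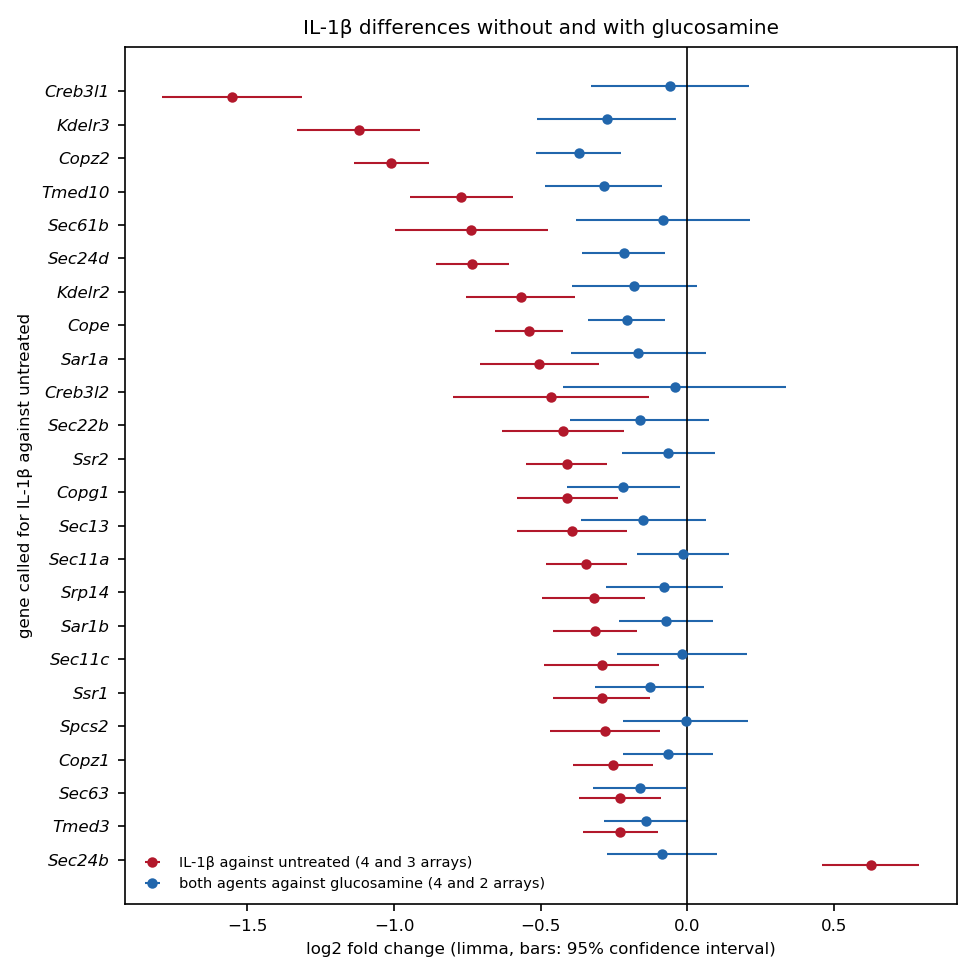
Log2 fold change with its 95% confidence interval for the 24 transport genes called between IL-1β and untreated cultures (red), beside the difference between both agents and glucosamine alone (blue) for the same genes, which uses other arrays. The red points of 23 genes lie below 0, from -1.55 for Creb3l1 to -0.23 for Sec63 and Tmed3, and the blue points lie between -0.37 and -0.01.

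The difference between the IL-1β responses without and with glucosamine was tested as the interaction of glucosamine and IL-1β, which was higher for 8 of the 47 genes and lower for 1, where 5.11% and 6.68% of all genes were called. It was positive, that is, the fall with IL-1β was smaller in the presence of glucosamine, for Creb3l1 (1.49 ± 0.16, adjusted p = 0.000126), Kdelr3 (0.85 ± 0.14, adjusted p = 0.00297), Sec61b (0.65 ± 0.18, adjusted p = 0.0457), Copz2 (0.64 ± 0.09, adjusted p = 0.000678), Sec24d (0.52 ± 0.09, adjusted p = 0.0025), Tmed10 (0.48 ± 0.12, adjusted p = 0.0288), Ssr2 (0.35 ± 0.10, adjusted p = 0.0469) and Cope (0.33 ± 0.08, adjusted p = 0.0225), and negative for Sec24b (-0.71 ± 0.11, adjusted p = 0.00201). Creb3l1 and Copz2 were also lower with glucosamine alone, so their IL-1β response in the presence of glucosamine started from a lower level. The calls of Sec61b and Ssr2 were each lost without any 1 of 11 of the 13 arrays, with values from 0.57 to 0.72 and from 0.27 to 0.43. For Sec61b the exceptions were replicate c of both agents and replicate d of IL-1β, and for Ssr2 they were replicates b and d of both agents. Tmed10 lost its call without either glucosamine array, both agents replicate b, IL-1β replicate b or c, or untreated replicate b or c (0.42 to 0.55), and Cope without either glucosamine array or untreated replicate b or c (0.31 to 0.34).

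Compared with untreated cultures, those with both agents had 9 transport genes higher and 8 lower, or 19.1% and 17%, where 16.6% and 14.7% of all genes were called, so the counts were near those of all genes. The genes that were higher were Sec61a1, Sec63, Ssr4, Srp72, Srprb, Spcs3, Sec11c, Tmed2 and Tmed7. On the mean of all probe sets of a gene, 4 were called higher and 8 lower, with Srp72 at -0.026, Sec63 at 0.016, Srprb at 0.37, Tmed2 at 0.25 and Tmed7 at 0.26 no longer called. The genes that were lower in the main fit were Sec62, Sec24d, Copb2, Copg1, Copz2, Tmed10, Golga2 and Creb3l1. Without untreated replicate b, 10 of the 17 calls were made, the lowest count of any array left out, with Sec63, Sec24d, Copb2, Copg1, Tmed2, Tmed7 and Tmed10 no longer called. Sec24d also lost its call without both agents replicate c (-0.18) or untreated replicate c (-0.20), Copg1 without untreated replicate c (-0.29), Tmed7 without untreated replicate a (0.47), and Tmed10 without both agents replicate a (-0.26) or c (-0.24) or untreated replicate c (-0.24). Copb2 lost its call without any 1 of 8 arrays, namely both glucosamine arrays, both agents replicates a, c and d, IL-1β replicate b and untreated replicates b and c (-0.26 to -0.19 over all arrays), and Tmed2 without any 1 of 7, namely both glucosamine arrays, both agents replicates a and b and the 3 untreated arrays (0.22 to 0.31).

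The other genes of the pathway, 94 measured of a list of 103 symbols, are further insertion factors, coat regulators, tethers and SNAREs. With IL-1β, 7 of the 94 rose and 22 fell, or 7.45% and 23.4%, where 15.5% and 15.3% of all genes were called. With both agents against IL-1β 33 were higher and 9 lower, or 35.1% and 9.57%, where 15.8% and 14.8% of all genes were. The median log2 fold changes were -0.10 and 0.18, against 0.09 and 0.03 over all genes. With glucosamine alone 19 rose and 4 fell, or 20.2% and 4.26%, where 10.4% and 9.37% of all genes were called. The median was 0.14, against 0 over all genes. Between both agents and glucosamine 0 of the 94 were called by limma, where 1.45% of all genes were higher and 1.13% lower. By the methods' test 0 were called as well, and 6 had an unadjusted p under 0.05 by limma. The shares of all genes in these last settings are not given. Of the genes called, the 3 largest rises with glucosamine were those of Tmed1, a p24 protein (log2 fold change 0.78 ± 0.18, adjusted p = 0.0101), Get3, the ATPase that delivers tail-anchored proteins (log2 fold change 0.72 ± 0.12, adjusted p = 0.00163), and Gorasp2, a Golgi stacking protein (log2 fold change 0.60 ± 0.11, adjusted p = 0.00278). The 3 largest falls were those of Trappc2, of a vesicle tether (log2 fold change -1.05 ± 0.13, adjusted p = 0.00016), Ergic1, a cycling membrane protein (log2 fold change -0.54 ± 0.09, adjusted p = 0.00133), and Nbas, of a tether for Golgi-to-ER vesicles (log2 fold change -0.53 ± 0.13, adjusted p = 0.0177). With IL-1β, Gosr1, a Golgi SNARE, rose most of the genes called (log2 fold change 1.93 ± 0.23, adjusted p = 5.93e-05), from 92.4 to 96.5 on untreated arrays to 314 to 488 with IL-1β, followed by Trappc6b (log2 fold change 0.75 ± 0.06, adjusted p = 1.1e-06) and Tfg, which organises ER exit sites (log2 fold change 0.60 ± 0.08, adjusted p = 0.000206). The 3 largest called falls were those of Klhl12, an adaptor for COPII enlargement, which was at the floor on 3 of 4 IL-1β arrays and 5.22-fold lower with the floor in place, of Emc9, of the membrane insertase, which was at the floor on all 4 and at least 2.63-fold lower, and of Arf5, a COPI-recruiting GTPase (log2 fold change -0.83 ± 0.23, adjusted p = 0.0203). Klhl12 and Emc9 had untreated mean signals of 35.4 and 15.2.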

How the data were processed

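RNA of cultured rat chondrocytes was hybridised to Affymetrix Rat Genome 230 2.0 arrays, 1 array per flask. The values used are the deposited intensities on a linear scale. The study's methods name Probe Profiler, which weights probe pairs, with global scaling of the arrays, whereas the submitters' processing notes name MAS5 version 5, and which of these made the deposited values is not settled. Array means were 127 to 145, 7.72% of the deposited intensities were below 0, and the number of arrays limits the precision. Groups were taken from sample titles, because the text descriptions name glucosamine for every sample, controls included.

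Intensities were floored at 5.71, their 25th percentile, and log2 transformed. Of 31042 probe sets other than controls, 20826 had 1 gene symbol, 436 several and 9780 none, after symbols were updated to RefSeq through Entrez identifiers. Each gene was represented by the probe set of highest mean among those annotated to it alone. A single linear model of the 13 arrays and 4 groups, with 9 residual degrees of freedom, was run in R 4.3.3, where limma 3.58.1 supplied moderated tests whose prior variance followed mean signal, over 29263 probe sets above the floor on at least 1 array. The fit was tested on simulated data with known changes. Contrasts were two-sided, and those that share a group are not independent.

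The genes and lists were chosen with earlier results of these data known. Each gene is named once with its role. Values on every array are given for up to 3 genes of a role with the largest called change with glucosamine or IL-1β and for genes called with opposite signs in 2 comparisons, and of the other pathway genes the 3 largest called changes in each direction are named. Kdelr1 was added after its values were seen. Alternatives were other floors, filters, scalings and variance models, the groups compared alone, the mean of all probe sets, a replicate block, a term for or removal of the replicate d arrays, each array left out, and the methods' analysis of variance with Tukey's test. Promoter windows were RefSeq's, searched with Python 3.11.15 and pandas 2.3.3.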

Additional observations from a re-analysis of the deposited data

Results flagged for a closer look

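In 2 of 94 groups of 4 arrays, 1 array stood far from the other 3, and chance flags about 1 in 20 such groups. Both were the IL-1β replicate d array. Sec11c read 657 there against 545 to 549.6 on the other IL-1β arrays, with a gap of 0.955 of the group's range, past the critical value of Dixon's test for 4 samples. Kdelr1 read 1218 there against 971 to 997, with a gap of 0.882 of the range. This array also had more probe sets above the floor than the replicate a to c arrays, and its part in these values was not tested.

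The response to IL-1β differed between cultures without and with glucosamine for 9 genes by the interaction term of limma. On the log2 scale the difference was 1.49 for Creb3l1, 0.85 for Kdelr3, 0.65 for Sec61b, 0.64 for Copz2, 0.52 for Sec24d, 0.48 for Tmed10, 0.35 for Ssr2, 0.33 for Cope and -0.71 for Sec24b. The calls of Creb3l1, Kdelr3, Copz2, Sec24d and Sec24b held in all 25 alternatives run with limma, although a second probe set of Sec24b gave -0.10 (adjusted p = 0.971).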

How the results depend on the processing

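Of 89 calls over the 6 comparisons, 55 held in all limma alternatives, 34 were lost in at least 1 and 25 of these without some array, and 0 were called in the opposite direction. Srp72 between both agents and untreated cultures was -0.026 on the mean of its probe sets, against 0.36. Glucosamine against untreated had 9 calls, 14 with only the groups compared or a term for the replicate d arrays, 15 without both d arrays, and 7 to 12 with each array left out. IL-1β against untreated had 24, 11 by the methods' test, and 17 (without untreated replicate c) to 29 with each array left out. Both agents against IL-1β had 29, 13 by the methods' test, and 25 to 31. Both agents against glucosamine had 1, 2 with quantile normalization or the mean of probe sets, 5 by the methods' test, 0 with no variance trend (4 at unadjusted p under 0.05) or with only the groups compared (6), and 0 (without either glucosamine array) to 1. Both agents against untreated had 17, 8 by the methods' test, and 10 (without untreated replicate b) to 18. The interaction had 9, 15 with quantile normalization, 5 with no variance trend, and 5 (without either glucosamine array or untreated replicate b or c) to 10. Each cause was not tested. Calls over all genes also moved. For glucosamine against untreated, 16.3% were higher and 14.7% lower without both d arrays, against 10.4% and 9.37% in the main fit. The shares of all genes in the other settings are not given here, so these counts are of the transport genes alone. The replicate letters were not taken as pairs: 7 of 16 same-letter correlations of deviations were over 0.1 (-0.17 to 0.80). Between IL-1β and both agents all 4 were (0.38 to 0.80), but pairs of unlike letters among replicates a to c gave 0.33 to 0.56, and without the d arrays the same-letter pairs gave 0.037, -0.0011 and 0.050. With the replicate block, in the order above, 13, 29, 30, 1, 16 and 10 genes were called. Over the 17 genes with other probe sets, 39 of 138 calls differed, 32 being lost, 7 gained and 0 opposite.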
